A study of Homo sapiens with 4 samples.

Results

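The genes of MHC class I antigen presentation were examined in 2 cell lines derived from human hepatocellular carcinoma (HCC), Huh1 and Huh7. They are HLA-B, HLA-C, HLA-E, HLA-F, B2M, TAP1, TAP2, TAPBP and NLRC5, and they were chosen by name for their place in the pathway. All 9 were present among the 18398 RefSeq transcripts quantified in each library. RNA-seq libraries were made from total RNA with a TruSeq kit. Each cell line was transfected with a negative control siRNA (NCsiRNA) or with an siRNA against CDCA8 (CDCA8siRNA), a subunit of the chromosomal passenger complex that acts in mitosis. There were 4 libraries, 1 for each cell line and siRNA, so no condition was replicated, and each line is a single model of the disease. The labels give no genotype beyond the name of the line, and neither dose nor time.

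MHC class I molecules show short peptides from the inside of a cell to CD8+ T cells. A heavy chain (HLA-B and HLA-C are among the classical ones) pairs with the light chain beta-2-microglobulin, the product of B2M. The peptides are cut by the proteasome, pumped into the endoplasmic reticulum by the transporter made of TAP1 and TAP2, and loaded onto the heavy chain with the help of tapasin, the product of TAPBP. HLA-E and HLA-F are nonclassical heavy chains that are read mainly by receptors of natural killer cells. NLRC5 is the transactivator of this gene set, and interferons raise the set in most tissues. Hepatocytes are known for low surface class I at rest.

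The values, of no stated unit, were taken as RPKM, that is, numbers of reads scaled to the length of the transcript and the depth of the library. The depth derived from them was 12197606 to 13384836 reads per library. CDCA8 was lower with its siRNA in both lines, at 24.1 RPKM with NCsiRNA and 5.86 with CDCA8siRNA in Huh1, and at 51.5 and 7.36 in Huh7. All 10 hepatocyte markers were at 1 RPKM or more in every library. Their summed level was 6229 and 5322 RPKM in Huh1 and 3391 and 2443 in Huh7 (NCsiRNA first). In limma over both lines, 7 of the 10 were called lower with CDCA8siRNA and 0 higher, against 4.21% and 6.03% of all genes tested. Of 10 leukocyte markers, 1 to 3 reached 1 RPKM in a library, and their sum ran from 17.3 to 31.9 RPKM. Those that reached it were CD68 (23.3 and 16.5 RPKM in Huh1, 3.71 and 3.73 in Huh7), LYZ (0.855 and 1.67, then 11.1 and 23.4) and CD3D (0 and 0.205, then 2.21 and 3.96). The defining leukocyte gene PTPRC was at 0.417 RPKM or less. Of 6 stromal and endothelial markers, COL1A1 and COL1A2 reached 1 RPKM, in Huh7 alone (summed level of the list 138.9 and 183.1 RPKM, against 0.168 and 0.170 in Huh1), while DCN was at 0.406 RPKM or less and CDH5 was listed at 0. The part of these markers in the class I results was not tested.

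Promoter sequences are given first, since the class I genes are known to share short control elements. Of the 9 genes, 7 were in the RefSeq promoter table (GRCh38.p14, 250 bases before to 50 after each start), and HLA-E and NLRC5 are only named. In the stretches that follow, capitals mark the letters of a motif, and each is written 5′ to 3′ on the strand of the gene. In the B2M, HLA-B and HLA-C stretches the capitals are, in order, an interferon-type element, the X2 box TGACG and the Y box ATTGG.
B2M: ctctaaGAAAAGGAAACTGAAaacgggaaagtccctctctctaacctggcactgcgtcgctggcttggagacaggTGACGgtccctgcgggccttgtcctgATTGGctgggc
HLA-B: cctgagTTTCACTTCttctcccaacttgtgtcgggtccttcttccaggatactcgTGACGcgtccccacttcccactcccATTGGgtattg
HLA-C: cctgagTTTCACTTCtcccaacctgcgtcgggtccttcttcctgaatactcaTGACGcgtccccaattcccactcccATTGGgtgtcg
These lie at chr15:44711367-44711478 on the plus strand (B2M), and at chr6:31357250-31357340 (HLA-B) and chr6:31272162-31272249 (HLA-C) on the minus strand. X2 followed within 10 to 30 bases by Y was found in these 3 genes and in 0.762% of all distinct promoters of the table.

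The interferon-stimulated response element core was searched as GAAANNGAA on both strands. It was found in B2M, HLA-F, TAP1, TAP2 and TAPBP, and in 8.11% of all promoters.
HLA-F: cagagtTTCTCTTTCtctccc
TAP1: gccgctTTCGATTTCGCTTTCccctaa
TAP2: gctgggGAAGCGAAAGCGAAagctgc
TAPBP: ttggagGAAAGTGAAAGTGAAaggag
These lie at chr6:29723273-29723293 on the plus strand (HLA-F) and, on the minus strand, at chr6:32853817-32853843 (TAP1), chr6:32838783-32838808 (TAP2) and chr6:33314079-33314104 (TAPBP). HLA-B and HLA-C carry the opposite spacing of the half-sites, GAANNGAAA, which was searched only after the sequences had been seen. It was found in HLA-B, HLA-C and TAP2 and in 7.65% of all promoters, and in TAP2 it overlaps the first motif. The NF-kB consensus was found in B2M, HLA-B, HLA-C, TAP1 and TAPBP (11.3% of all promoters). The gamma-activated site, searched as TTCNNNGAA, was found only in TAP1, in the second of its listed start windows (7.67% of all promoters). A match describes letters and not the binding of a factor.

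B2M was by far the most abundant of the 9 transcripts. Its level was 515 RPKM in Huh1 with NCsiRNA, 510.3 in Huh1 with CDCA8siRNA, 514 in Huh7 with NCsiRNA and 674 in Huh7 with CDCA8siRNA. The 3 lower libraries lay close together and Huh7 with CDCA8siRNA stood above them. Ranked among all transcripts of a library, B2M was between place 82 and place 134. In Huh1 with NCsiRNA it was followed by HLA-C, TAPBP, HLA-E, TAP2, TAP1, HLA-B, HLA-F and NLRC5. TAPBP and HLA-E, at 20.2 and 19.5 RPKM, and HLA-F and NLRC5, at 0.831 and 0.451 RPKM, differed by less than 2 counting SDs there. The order of Huh7 was another one. With NCsiRNA, TAPBP came directly after B2M and was followed by HLA-C, and TAP2, HLA-B, TAP1 and HLA-E stood between 7.07 and 5.38 RPKM without a gap of 2 counting SDs between neighbours. Counting SDs come from the estimated number of reads behind a value and hold no variation between cultures. In bulk RNA, fewer cells that express a gene and less RNA per cell cannot be told apart.

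**Figure D1:**
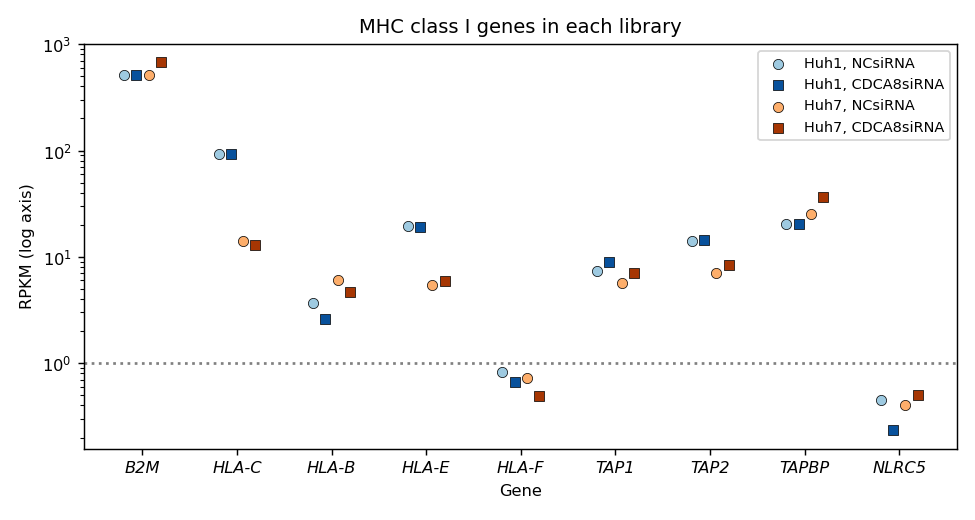
RPKM of the 9 class I genes (log axis) in each of the 4 libraries, 1 point per library and gene; the dotted line marks 1 RPKM. B2M lies between 510.3 and 674 RPKM, HLA-C separates the lines at 93.7 and 93.2 against 14.1 and 12.9, and HLA-F and NLRC5 lie under 1 RPKM in every library.

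Of the 7 class I genes tested, the heavy chains HLA-C and HLA-E had the largest differences between the lines. HLA-C was at 93.7 RPKM with NCsiRNA and 93.2 with CDCA8siRNA in Huh1, and at 14.1 and 12.9 RPKM in Huh7. Both Huh1 libraries were above both Huh7 libraries, 6.63-fold with NCsiRNA and 7.21-fold with CDCA8siRNA. Over both siRNAs the Huh7 minus Huh1 difference of log2(RPKM + 1) was -2.70 (SE 0.0922, adjusted p = 4.38e-08, limma). HLA-E, a ligand of the CD94/NKG2A receptor, was at 19.5 and 19.1 RPKM in Huh1 and at 5.38 and 5.87 in Huh7 (NCsiRNA first). The lines did not overlap, and the log2 difference was -1.61 (SE 0.107, adjusted p = 2.38e-06). HLA-B went the other way, with 3.65 and 2.62 RPKM in Huh1 and 6.03 and 4.63 in Huh7. Its lines did not overlap either, and the log2 difference was 0.62 (SE 0.124, adjusted p = 0.00191). HLA-F stayed low in all libraries, at 0.831 and 0.669 RPKM in Huh1 and 0.722 and 0.486 in Huh7, and the lines overlapped. It rested on about 10 to 18 reads per library and was under the minimum of 1 RPKM set for the test.

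HLA-B, HLA-C, HLA-E and HLA-F together summed to 118 and 116 RPKM in Huh1 and to 26.3 and 23.9 in Huh7. The Huh1 sum was thus 4.48-fold that of Huh7 with NCsiRNA and 4.83-fold with CDCA8siRNA. The mix of these 4 genes differed as well. HLA-C made up 79.6% and 80.7% of their sum in Huh1 against 53.8% and 54.0% in Huh7, whereas HLA-B made up 3.11% and 2.27% against 23.0% and 19.4%. The share of HLA-E was 16.6% and 16.5% in Huh1 and 20.5% and 24.6% in Huh7. HLA-G, a nonclassical heavy chain of the placenta, was at 0.423 RPKM or less in every library.

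**Figure D2:**
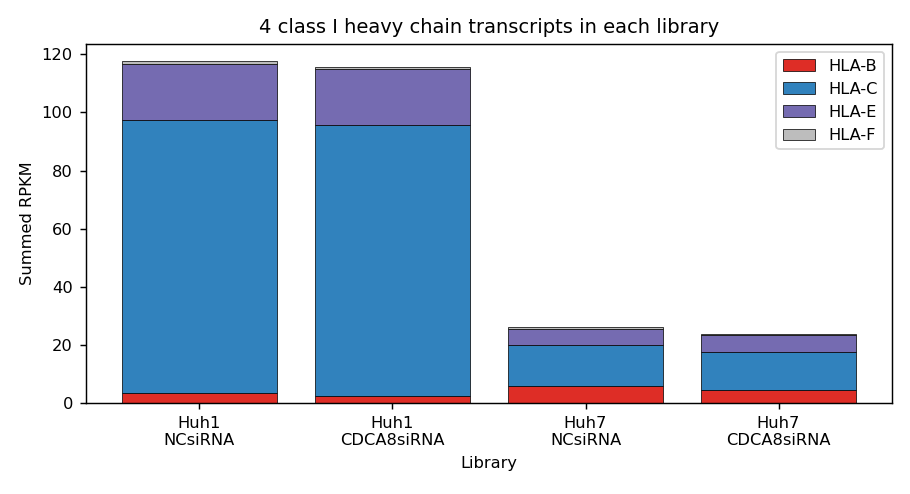
Summed RPKM of the heavy chains HLA-B, HLA-C, HLA-E and HLA-F in each library, stacked, with the axis from 0 and 1 bar per library. The HLA-C segment is 93.7 and 93.2 RPKM in Huh1 and 14.1 and 12.9 RPKM in Huh7, and HLA-F is the thinnest segment in every library.

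Heavy chain values carry a limit of their own. In GENCODE transcripts, 6.79% of the 50-base stretches of HLA-C, 4.66% of HLA-E, 2.54% of HLA-B and 1.51% of HLA-F also occur in another HLA gene, so reads may be split between them. Reads were aligned to hg19, and the fit of each line's own alleles to that reference was not tested. Which sequences of the MHC region the alignment used is not given in the sources used here.

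B2M did not share the line difference of HLA-C and HLA-E, which were lower in Huh7. With NCsiRNA its ratio of Huh7 to Huh1 was 0.9995, and with CDCA8siRNA it was 1.32. The log2 difference over both siRNAs was 0.20 (SE 0.0953, adjusted p = 0.0887), which did not pass the test. B2M stood at 4.38 and 4.42 times the summed RPKM of HLA-B, HLA-C, HLA-E and HLA-F in Huh1, and at 19.6 and 28.2 times that sum in Huh7, with other heavy chains not counted.

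The transporter genes were both higher in Huh1. TAP2 was at 14.2 RPKM with NCsiRNA and 14.5 with CDCA8siRNA in Huh1, and at 7.07 and 8.33 in Huh7. The lines did not overlap, and the log2 difference was -0.82 (SE 0.109, adjusted p = 0.000165). TAP1 was at 7.39 and 8.90 RPKM in Huh1 and at 5.72 and 7.06 in Huh7. Its lines were separated by a narrow gap, and the log2 difference was -0.31 (SE 0.111, adjusted p = 0.0331). The ratio of TAP2 to TAP1 was 1.92 and 1.63 in Huh1 and 1.24 and 1.18 in Huh7. Tapasin went the other way. TAPBP was at 20.2 and 20.4 RPKM in Huh1 and at 25.2 and 36.8 in Huh7, where CDCA8siRNA stood highest, and the log2 difference was 0.56 (SE 0.129, adjusted p = 0.00398). The calls of TAP1 and TAPBP were lost when low genes were left in the fit (adjusted p = 0.0903 and 0.172) or when the siRNA was left out as a term (adjusted p = 0.158 and 0.0570), and that of HLA-B was lost with low genes left in (adjusted p = 0.0582).

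NLRC5 was the lowest or next to lowest of the 9 genes in every library. It was at 0.451 and 0.233 RPKM in Huh1 and at 0.409 and 0.502 in Huh7. The lines overlapped, each value rested on about 21 to 41 reads, and the gene was under the minimum of the test.

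Counted over the class I genes, 6 of the 7 tested differed between the lines in limma, against 71.2% of the 12148 genes tested. HLA-C, HLA-E, TAP1 and TAP2 were lower in Huh7, as were 28.7% of all genes tested, and HLA-B and TAPBP were higher, as were 42.5%. The median log2 difference was -0.308 over the 7 and 0.141 over all genes. The libraries of the lines did not overlap for those same 6 genes, against 80.5% of all genes tested. A difference of 2-fold on the log2(RPKM + 1) scale was met by HLA-C and HLA-E with either siRNA, against 27.2% of all genes with NCsiRNA and 27.5% with CDCA8siRNA. The share of class I genes that differed was therefore near the background of a pair of unlike cell lines. Quantile normalization moved the median of all genes by -0.147. Under it the 6 calls held with their directions, and B2M was also called higher in Huh7 (log2 difference 0.45, adjusted p = 0.000259). HLA-F, which passed the minimum only under this scaling, was then called lower in Huh7 (log2 difference -0.45, adjusted p = 0.0344).

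**Figure D3:**
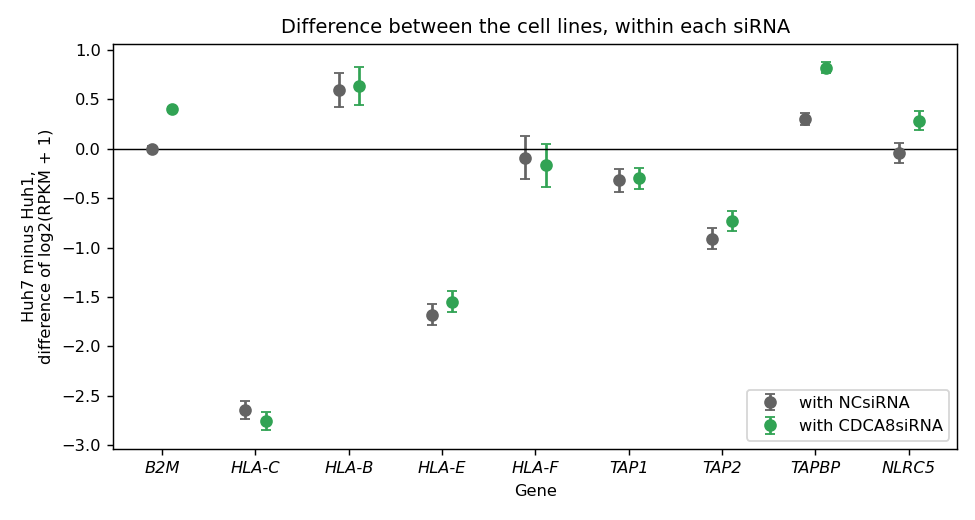
Huh7 minus Huh1 difference of log2(RPKM + 1) for each class I gene, with NCsiRNA (grey) and with CDCA8siRNA (green); each point is 1 library against 1 library, and bars are 1 counting SD. HLA-C lies at -2.65 and -2.76 and HLA-E at -1.68 and -1.55, and HLA-B lies above 0 with both siRNAs. All genes but HLA-C and HLA-F lie higher with CDCA8siRNA than with NCsiRNA, and TAPBP, B2M and NLRC5 do so by the most.

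Other genes of the pathway were counted by function, and each count stands against the 42.5% of all genes tested that were higher and the 28.7% that were lower in Huh7. Of 5 genes of the immunoproteasome and its activator, which shape the cut of class I peptides, 3 were lower in Huh7 and none tested was called higher. PSMB8 was at 9.77 and 9.43 RPKM in Huh1 and at 3.57 and 3.81 in Huh7 (log2 difference -1.18, adjusted p = 2.65e-05). PSMB9, whose gene lies beside TAP1, was at 6.27 and 4.92 RPKM in Huh1 and at 2.50 and 1.56 in Huh7 (log2 difference -1.13, adjusted p = 7.15e-05). PSMB10 was lower in Huh7 by a smaller amount (log2 difference -0.30, adjusted p = 0.0246). The median over the 5 was -0.297.

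Of 8 genes of peptide loading and quality control, 3 were higher and 3 lower in Huh7. CALR, the chaperone calreticulin of the loading complex, was at 349 and 348 RPKM in Huh1 and at 712 and 803 in Huh7 (log2 difference 1.11, adjusted p = 2.15e-06). PDIA3, its thiol oxidoreductase partner, was higher in Huh7 by 0.58 (adjusted p = 0.000118). CANX and the tapasin homologue TAPBPL were lower in Huh7, with log2 differences of -0.22 (adjusted p = 0.0243) and -0.67 (adjusted p = 0.00493). The other called genes were HSPA5, which was higher, and BCAP31, which was lower. Of 8 peptide trimming genes, 3 were higher and 1 lower in Huh7. LAP3, a leucine aminopeptidase, was at 14.7 and 14.9 RPKM in Huh1 and at 52.8 and 66.1 in Huh7 (log2 difference 1.92, adjusted p = 7.54e-07). Of the trimming enzymes of the endoplasmic reticulum, ERAP2 was lower in Huh7 (log2 difference -0.49, adjusted p = 0.0270), and ERAP1 did not pass the test (0.15, adjusted p = 0.221).

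Of 11 tested transcription factors of class I genes, 5 were higher in Huh7 and 2 lower. Within the RFX complex that binds class I promoters beside the X2 box, RFXANK was higher in Huh7 (log2 difference 1.23, adjusted p = 1.32e-05) and RFX5 was lower (-0.73, adjusted p = 0.000295). IRF1, which binds interferon-type elements, was at 9.26 and 7.04 RPKM in Huh1 and at 6.50 and 7.52 in Huh7, and did not pass the test (adjusted p = 0.272). Of 10 tested genes of interferon receptors and JAK-STAT signalling, 5 were higher in Huh7 and 0 lower. Among them were IFNGR2, a chain of the interferon gamma receptor (log2 difference 1.37, adjusted p = 4.10e-06), and IRF9 (0.94, adjusted p = 7.44e-05). Of 19 tested interferon-stimulated genes, 8 were higher and 9 lower in Huh7, with a median of -0.137. OAS1 was at 14.6 and 16.8 RPKM in Huh1 and at 0.394 and 0.931 in Huh7 (log2 difference -3.34). IRF7 was at 4.74 and 4.42 RPKM in Huh1 and at 0.270 and 0.165 in Huh7 (-2.20). MX1 was at 0.0252 and 0.0511 RPKM in Huh1 and 1.93 and 2.86 in Huh7 (1.70). OAS1 and IRF7 entered the line test through Huh1 alone and MX1 through Huh7 alone, which largely set their directions. Of 4 polycomb genes, EED and PCGF1 were lower in Huh7.

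**Figure D4:**
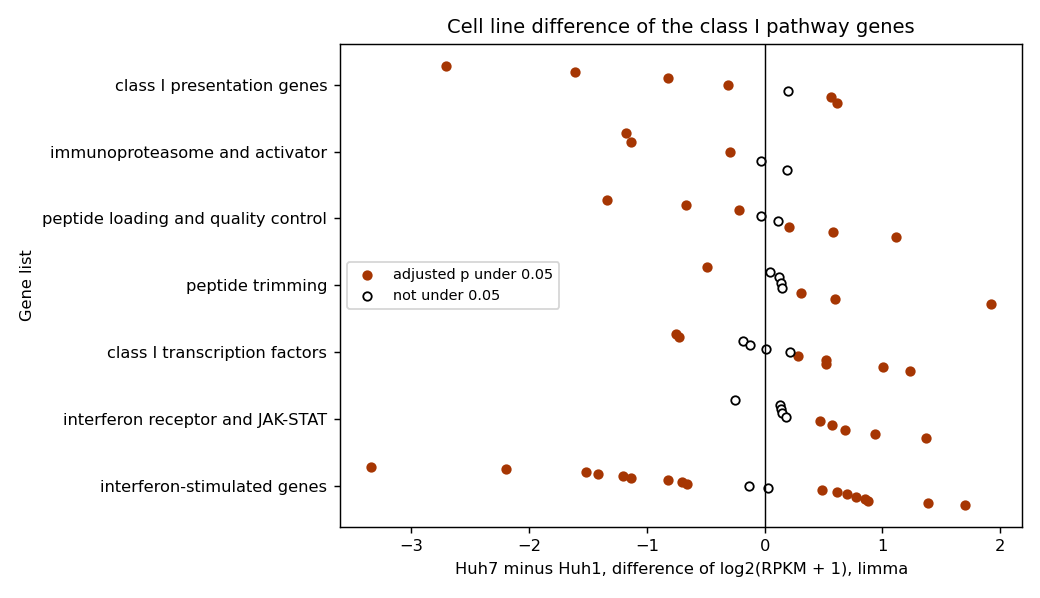
Huh7 minus Huh1 difference of log2(RPKM + 1) from limma, 1 point per gene, in a row for the class I genes and a row for each other pathway list; filled points passed an adjusted p of 0.05. The immunoproteasome row has 3 called genes, all left of 0, while the interferon-stimulated genes spread from -3.34 (OAS1) to 1.70 (MX1). OAS1 reached 1 RPKM in Huh1 alone and MX1 in Huh7 alone.

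With CDCA8siRNA, HLA-B was lower and TAP1 higher in both lines, and B2M and TAPBP were higher in Huh7, but no class I gene passed the test. In limma over both lines, 0 of the 7 tested class I genes passed an adjusted p of 0.05, against 10.2% of the 10357 genes tested. HLA-B alone had an unadjusted p under 0.05. The median log2 change was 0.120 over the 7 and 0.0259 over all genes. On the log2(RPKM + 1) scale, none of the 7 genes changed 2-fold in either line, as 0.494% of all genes tested did in Huh1 and 1.57% in Huh7. HLA-F and NLRC5, under 1 RPKM in every library, could not reach that threshold and were not among the genes tested.

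HLA-B was lower with CDCA8siRNA in both lines, at 2.62 against 3.65 RPKM in Huh1 and 4.63 against 6.03 in Huh7, ratios of 0.717 and 0.768. The log2 change was -0.34 (SE 0.124) and did not pass the test (adjusted p = 0.118). Within a line it was -1.87 counting SDs in Huh1 and the same in Huh7. Under quantile normalization it was called (-0.41, adjusted p = 0.0421). HLA-C was all but level in Huh1 and a little lower in Huh7, with log2 changes of -0.0072 and -0.12, the latter close to its counting SD of 0.119. HLA-E changed by -0.029 and 0.11 and HLA-F by -0.13 and -0.21 in Huh1 and Huh7, each within about 1 counting SD. The sum of these 4 genes moved by -0.026 and -0.13.

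B2M and TAPBP moved in Huh7 and not measurably in Huh1. In Huh1, B2M stood at 515 RPKM with NCsiRNA and 510.3 with CDCA8siRNA, a log2 change of -0.012 with a counting SD of 0.0254. In Huh7 the corresponding levels were 514 and 674 RPKM, a log2 change of 0.39 with a counting SD of 0.0248. TAPBP stood at 20.2 and 20.4 RPKM in Huh1, a log2 change of 0.014 (counting SD 0.0611), and at 25.2 and 36.8 in Huh7, a log2 change of 0.53 (counting SD 0.0532). Across all genes the SD of the change was 0.261 in Huh1 and 0.347 in Huh7. The Huh7 changes of B2M and TAPBP were 15.7 and 9.94 counting SDs, and both were within 2 SDs of the spread across all genes. Over both lines neither passed the test (0.19, adjusted p = 0.243 for B2M and 0.27, adjusted p = 0.216 for TAPBP), and under quantile normalization B2M did (0.27, adjusted p = 0.0330). That fit takes disagreement between the lines as error, so it cannot test a change seen in Huh7 alone.

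TAP1 was higher with CDCA8siRNA in both lines by like amounts. Levels with NCsiRNA and CDCA8siRNA were 7.39 and 8.90 RPKM in Huh1 and 5.72 and 7.06 in Huh7, with log2 changes of 0.24 (counting SD 0.102) and 0.26 (counting SD 0.116). Over both lines the change was 0.25 (SE 0.112, adjusted p = 0.196). TAP2 changed by 0.031 in Huh1 and 0.21 in Huh7 (adjusted p = 0.537 over both lines). NLRC5 stood at 0.451 and 0.233 RPKM in Huh1, about 41 and 21 reads, and at 0.409 and 0.502 in Huh7, about 34 and 41 reads. Its log2 change in Huh1 was -0.23 (counting SD 0.0925). With a pseudocount of 0.1 RPKM in place of 1 it was -0.73. By direction alone, 3 of the 7 genes that reached 1 RPKM were above 0 in Huh1 and 5 in Huh7, where 55.1% and 54.5% of all genes tested were.

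**Figure D5:**
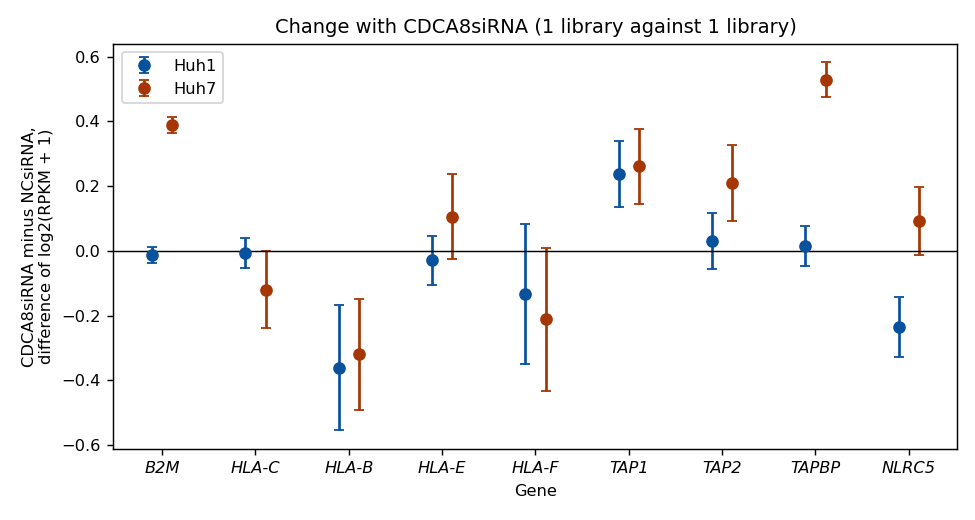
CDCA8siRNA minus NCsiRNA difference of log2(RPKM + 1) of each class I gene in Huh1 and in Huh7, 1 library against 1 library; bars are 1 counting SD. B2M and TAPBP lie at -0.012 and 0.014 in Huh1 and at 0.39 and 0.53 in Huh7, TAP1 lies above 0 in both lines and HLA-B below 0 in both.

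Few other genes of the pathway passed the siRNA test, where 6.03% of all genes were called higher and 4.21% lower. Of the 8 genes of loading and quality control, 0 rose and 2 fell. SEC61A1, a subunit of the translocon, was at 158 and 113 RPKM in Huh1 and at 189 and 109.8 in Huh7 (log2 change -0.63, adjusted p = 0.00505), and the chaperone HSPA5 fell by 0.33 (adjusted p = 0.0300). Of the 5 immunoproteasome genes, the 8 trimming genes, the 11 transcription factors, the 9 tested interferon receptor and JAK-STAT genes and the 4 polycomb genes, 0 were called, with 1, 0, 1, 2 and 1 of them at an unadjusted p under 0.05. Of 13 tested interferon-stimulated genes, SAMD9 rose, with RPKM ratios of 2.19 in Huh1 and 2.61 in Huh7 (0.63, adjusted p = 0.0349), and IFITM3 fell (-0.42, adjusted p = 0.0113). On the log2(RPKM + 1) scale, GBP1, a guanylate-binding protein, was the only one of them to change 2-fold within a line, from 5.76 to 13.6 RPKM in Huh7, and it did not pass the test over both lines (0.57, adjusted p = 0.122).

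Genes whose pattern over the 4 libraries was nearest to that of a class I gene were named for the 4 with the highest mean RPKM. Likeness is the Euclidean distance between profiles of log2(RPKM + 1), each centred on its own mean, over 12148 genes. MRPL33 was nearest to B2M (distance 0.0407), followed by C5orf28 and COL4A3BP. NEO1 was nearest to HLA-C (0.0648), followed by PRG4 and ST6GALNAC4. RABL2A was nearest to TAPBP (0.0461), followed by SPATA2L and SLC39A13. C3orf45 was nearest to HLA-E (0.0276), followed by FBXO30 and DEPTOR. With only 4 libraries, many genes lie close to any given profile.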

How the data were processed

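RNA of Huh1 and Huh7 cells with NCsiRNA or CDCA8siRNA was measured in 4 libraries, 1 per condition, grouped by their labels. Per RefSeq transcript, the authors deposited 1 value of no stated unit, taken here as RPKM (reads counted and divided by transcript length and library depth before deposit), since value times transcript length falls on multiples of 1 constant per library, which also gave the depth. Among genes with few estimated reads, 35.2% to 38.1% per library lay close to a whole multiple of it. The others held fractions of a read, so the unit, the depth and the counting SDs are deduced. The submitters' processing notes name CASAVA 1.8.2, TopHat2 2.0.9 and hg19; the counter, its annotation and its treatment of reads with several alignments are not given in the sources used here. Lengths came from GENCODE, by RefSeq identifier for 17768 transcripts and by symbol for 497 (TAPBP among them), and 133 had none, so numbers of reads are estimates.

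Tests used limma 3.58.1 (R 4.3.3) on log2(RPKM + 1) of all 4 libraries, with cell line and siRNA as terms, a mean-variance trend and Benjamini-Hochberg adjustment over all genes tested, and an adjusted p under 0.05 was called. The fit leaves 1 residual degree of freedom and shares the spread across genes. The siRNA test took genes that reached 1 RPKM in both lines, and the line test those that reached it in any of the 4 libraries. A gene under 1 RPKM throughout a line thus entered the line test through the other line alone, which largely set its direction. Such genes are part of the counts between the lines, for the lists and for all genes. A log2(RPKM + 1) difference understates the change of low genes. Within a line or siRNA, 1 library was set against 1 library at a 2-fold threshold, with no test. Counting SDs follow from estimated reads. The limma siRNA fit was also run on simulated libraries with known changes, and the line fit was not. Python 3.11.15 was used for the rest.

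The class I genes and the gene lists were chosen with earlier results of these data known. All class I genes are named. Of the pathway lists, a set of fixed genes and the 8 called genes with the largest difference per comparison were to be named, and any further gene was named after its values were seen. Alternatives were the pseudocount, the filter, the scaling and the model terms. The sum of HLA-B, HLA-C, HLA-E and HLA-F and the motif GAANNGAAA were added after seeing the data. Some genes of the pathway are not reported here by name.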

Additional observations from a re-analysis of the deposited data

Results flagged for a closer look

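For 3 genes the change with CDCA8siRNA had opposite signs in the lines, and with 1 library per condition the difference was not tested. The Huh7 change minus the Huh1 change, on the log2(RPKM + 1) scale, was 0.402 for B2M (counting SD 0.0355), where Huh1 stood at -0.012 and Huh7 at 0.39. Under quantile normalization the Huh1 change of B2M was 0.072, so the signs were then alike. It was 0.327 for NLRC5 (counting SD 0.139), a gene under 1 RPKM in every library. It was 0.135 for HLA-E (counting SD 0.150), less than its counting SD.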

How the results depend on the processing

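With 1 library per condition, no library could be left out with a test remaining, since 0 residual degrees of freedom would be left. The labels carry no replicate numbers, and the siRNA fit pairs the libraries of a line through the cell line term. The number of genes called for CDCA8siRNA by limma was 1061, against 0 with no filter on low values (2050 at an unadjusted p under 0.05) and 0 without the cell line as a term (89 at an unadjusted p under 0.05). The number called between the lines was 8654, against 5433 with no filter. With a pseudocount of 0.1 RPKM, 164 in place of 54 genes changed 2-fold in Huh1 and 422 in place of 182 in Huh7. The cause of these shifts was not tested. The siRNA change of HLA-E was -0.0114 under quantile normalization, against 0.038. Over the alternatives, the line difference kept its direction and side of the threshold for the class I genes in 50 of 56 fits of a single gene, and the siRNA change did in 52 of 55. The other fits are named beside the results. Part of both counts was fixed in advance. A change of the filter, the trend or the model terms left each log2 difference as it was. The siRNA fits with no filter and without the cell line as a term called 0 genes, so no class I gene could be called there. HLA-F and NLRC5 are limited by depth, at 10 to 41 reads per library.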

Other observations

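Class I-like molecules, among them the stress ligands read by the NKG2D receptor of natural killer cells, were compared between the lines. Of 8 tested, 4 were higher and 3 lower in Huh7, against 42.5% and 28.7% of all genes tested. MICA was at 14.1 and 13.8 RPKM in Huh1 and at 3.71 and 2.47 in Huh7 (log2 difference -1.88, adjusted p = 3.37e-06). PROCR, a class I-like receptor of protein C, was also lower in Huh7 (-2.70, adjusted p = 2.36e-07), whereas ULBP3 was higher (1.96, adjusted p = 3.78e-05). ULBP1 stood higher in Huh7 as well (1.91). At 0.206 and 0.193 RPKM in Huh1, it entered the line test through Huh7 alone, which largely set that direction. MICB was the only one of 7 tested to pass the siRNA test, where 6.03% of all genes were called higher and 4.21% lower. It was at 15.4 RPKM with NCsiRNA and 9.77 with CDCA8siRNA in Huh1, and at 26.1 and 15.6 in Huh7 (log2 change -0.66, adjusted p = 0.00605).

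MHC class II genes were near silent, and so was their transactivator CIITA, at 0.0505 RPKM or less. Of 12 class II genes, HLA-DMA and HLA-DOB alone reached 1 RPKM, in Huh1, with 1.40 and 0.946 RPKM for HLA-DMA and 1.32 and 1.10 for HLA-DOB. In Huh7 they were at 0.146 and 0.0727 RPKM (HLA-DMA) and at 0.0598 and 0.238 (HLA-DOB), on about 1 to 4 reads. Both entered the line test through Huh1 alone, which largely set the direction of their log2 differences (-0.96 and -0.95). Their calls in that test are therefore not counted as a result.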
